A study of Mus musculus with 2 samples.

Results

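Transcripts of 10 genes of the Notch pathway were examined in mouse cortex at embryonic day 15.5. They encode the receptors Notch1, Notch2 and Notch3, the ligands Dll1, Dll3, Jag1 and Jag2, and the target repressors Hes1, Hes5 and Heyl. The genes were taken by symbol from 20373 listed genes, and all 10 were listed for both cell populations. The populations were neurons and neural progenitor cells (NPCs), sorted by fluorescence from embryos that carried a green reporter driven by Nestin and a red reporter driven by doublecortin (DCX). Both populations came from the same heterozygous Nestin-GFP by homozygous DCX-mRFP cross, with double-coloured cells taken as neurons and green cells as NPCs. Each population was a single RNA sequencing library, and the labels do not say how many embryos were pooled.

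Notch signalling acts between touching cells. A Delta or Jagged ligand on a cell binds a Notch receptor on its neighbour, ADAM proteases and gamma-secretase release the receptor's intracellular domain, and this domain joins the DNA-binding protein Rbpj to switch on Hes and Hey genes. In the embryonic cortex Hes proteins repress proneural genes and hold cells in the progenitor state, while cells that begin to differentiate present the ligand to their neighbours.

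The start region of Hes5 is shown because Hes5 is a textbook direct target of Notch signalling. The RefSeq table of GRCm38.p6 gave start regions for 8 of the 10 genes, and the 250 bases before each start were searched for GTGGGAA, a core Rbpj recognition sequence, on both strands. Hes1 and Heyl had no start region there and were not searched, so Hes5 was the only target repressor among the 8. Hes5 was the 1 gene of these 8 with a match, the others being receptors and ligands. It held 2 matches, beginning 226 and 83 bases before the start, in opposite orientations. Among 32851 start regions of this length in the table, 5.42% held a match and 0.161% held at least 2. A match describes the letters and is not evidence of binding. The Hes5 sequence is printed below from chr4:154960673-154960922 on the plus strand, with the matches in capitals.
Hes5: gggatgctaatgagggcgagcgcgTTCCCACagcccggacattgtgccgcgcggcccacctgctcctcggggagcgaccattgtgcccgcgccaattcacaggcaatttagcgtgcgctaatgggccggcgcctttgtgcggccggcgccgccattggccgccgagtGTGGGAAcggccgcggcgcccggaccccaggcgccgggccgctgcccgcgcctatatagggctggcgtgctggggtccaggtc

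Reads assigned to genes summed to 23312054 in neurons and 26346226 in NPCs. Levels are given as CPM, counts per 1000000 on the authors' common scale, on which 1 CPM was 22.8 reads in the neuron library and 27.0 reads in the NPC library. Nes, the gene of the progenitor filament nestin, was at 189.5 CPM in neurons and 408.5 CPM in NPCs. Dcx, the gene of the neuronal microtubule protein doublecortin, was at 3294 CPM in neurons and 2522 CPM in NPCs, so the NPC library also held abundant transcripts of this neuronal gene. The column headings mark the neuron library by the letter R and the NPC library by the letter D, which the labels do not explain. If these letters stand for sort colours, red and double, the populations would differ from those the labels give, and every value for neurons or NPCs would stand for other cells. The labels were followed here, and this was not settled by the files. With 1 library per population there was no replicate check and no test. The 95% intervals cover counting error only, because there were no replicates. Reads were not tagged with molecular identifiers and may repeat a molecule, so even for counting error the intervals may be too narrow. In bulk libraries fewer cells of a type and less RNA per cell cannot be told apart.

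Receptors and target repressors were lower in neurons than in NPCs throughout, the Delta ligands and Jag1 were lower by less, and Jag2 was higher. Differences were counted from 2-fold upward with 1 CPM added to both values, among genes that reached 1 CPM in either library. By this count 7 of the 10 genes were lower in neurons, where 6.73% of all 12693 genes past the filter were, and 1 was higher in neurons, as were 3.85% of all genes. The median log2 ratio of neurons to NPCs was −1.75 over the 10 genes and −0.0049 over all genes past the filter. All 10 genes passed the filter, Heyl through the NPC library alone.

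**Figure D1:**
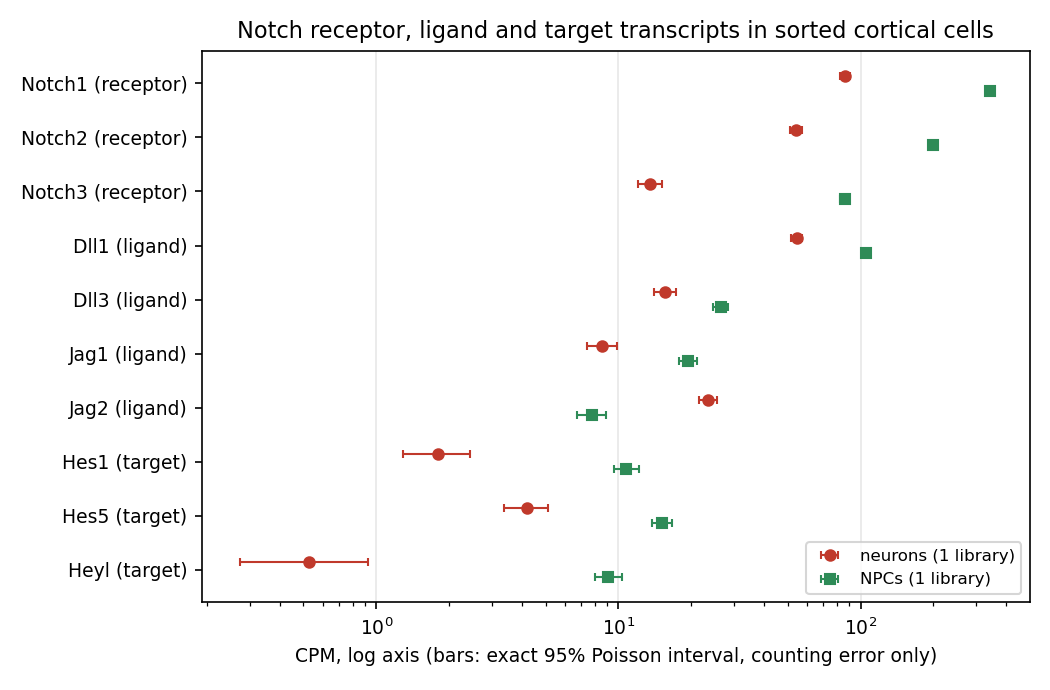
Level of each of the 10 transcripts in the neuron library (circles) and the NPC library (squares), in CPM on a log axis, with exact 95% Poisson intervals for counting error. Jag2 is the single gene whose neuron value (23.4 CPM) lies to the right of its NPC value (7.79 CPM).

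The 3 receptor transcripts were all lower in neurons. Notch1, the main receptor of cortical radial glia, was at 86.2 CPM in neurons (95% Poisson interval 82.4 to 90.1) and 342.3 CPM in NPCs (335.4 to 349.4). Its neuron level was thus 0.252 times its NPC level, with an exact 95% counting interval of 0.240 to 0.264. On the scale with 1 CPM added its log2 ratio was −1.98, at percentile 0.496 of all genes past the filter.

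Notch2, a receptor that radial glia also make, was at 54.3 CPM in neurons and 198.8 CPM in NPCs. This was a ratio of 0.273 (0.257 to 0.291). The ratio of Notch2 exceeded that of Notch1 by a factor of 1.08 (1.001 to 1.17), an interval whose lower end lies next to 1, so these receptors had nearly the same relative level in neurons.

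Notch3, a receptor that vascular mural cells (pericytes and smooth muscle) also make, was at 13.5 CPM in neurons and 85.8 CPM in NPCs. Its ratio of 0.158 (0.139 to 0.177) was below that of Notch1, and the Notch1 ratio was 1.60 times the Notch3 ratio (1.40 to 1.82). Most markers of mural cells were lower in neurons as Notch3 was, those of smooth muscle excepted. Their summed level over 14 genes was 21.8 CPM in neurons and 276.7 CPM in NPCs. Of the 13 genes past the filter, 9 were at least 2-fold lower in neurons, beside 6.73% of all genes. Some of the 13 passed through the NPC library alone, which fixed their direction. The pericyte receptor gene Pdgfrb was at 2.33 CPM in neurons and 54.0 CPM in NPCs. Rgs5, another pericyte gene, was at 2.68 CPM in neurons and 39.1 CPM in NPCs, and the filament gene Des had 0 reads in neurons, which allows up to 0.132 CPM by the limit of 3 reads. The smooth muscle genes of the list were near equal, with neuron to NPC ratios of 1.11 (0.735 to 1.69) for Acta2, 1.04 (0.668 to 1.60) for Tagln and 0.989 (0.702 to 1.39) for Myh11. The oligodendrocyte lineage genes were lower in neurons too, at a summed level of 2.81 CPM in neurons and 76.8 CPM in NPCs. All 5 were at least 2-fold lower, beside 6.73% of all genes past the filter, with none at 0 reads. All except Cspg4 passed through the NPC library alone, which fixed their direction. The pericyte marker Cspg4 belongs to both lists. The part of these cells in the Notch3 difference was not tested.

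The mixture of receptors held less Notch3 in neurons. Per kilobase of transcript, Notch1 supplied 57.0% of the summed level of the 3 receptors in neurons and 54.9% in NPCs. Notch2 supplied 32.4% in neurons and 28.8% in NPCs, and Notch3 supplied 10.6% in neurons and 16.3% in NPCs. The order Notch1, Notch2, Notch3 was the same in both libraries.

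**Figure D2:**
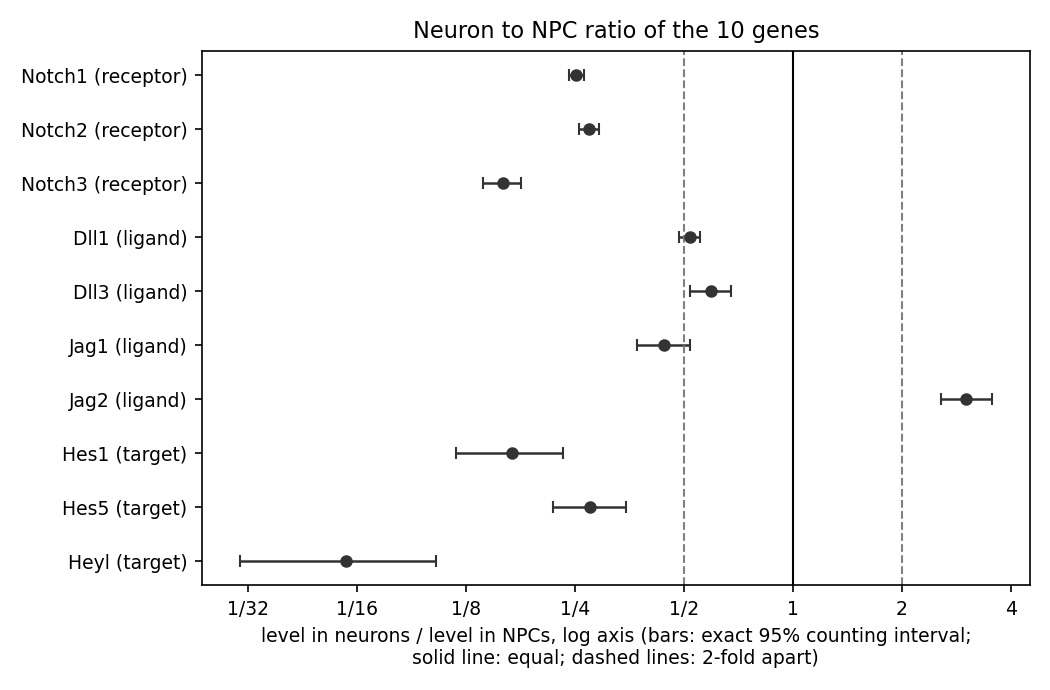
Ratio of the neuron level to the NPC level for each gene, on a log axis, with exact 95% counting intervals. The solid line marks equal levels and the dashed lines 2-fold differences. The intervals of Dll1 and Jag1 include the lower dashed line and that of Jag2, from 2.56 to 3.55, lies wholly above the upper dashed line.

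The ligand transcripts did not move together. Dll1, the Delta ligand that activates Notch on neighbouring cells, was at 54.4 CPM in neurons and 105.0 CPM in NPCs. Its ratio was 0.518 (0.484 to 0.554), which was 2.06 times the ratio of Notch1 (1.89 to 2.24). Neurons thus held a larger part of the NPC level of Dll1 than of Notch1. Dll1 was just short of the 2-fold count at a log2 ratio of −0.94, and it entered that count at −1.003 when libraries were scaled by total reads.

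Dll3, a divergent Delta protein that does not activate Notch on neighbouring cells, was at 15.6 CPM in neurons and 26.4 CPM in NPCs. Its ratio was 0.592 (0.520 to 0.673). The factor between the Dll3 and Dll1 ratios was 1.14 (0.987 to 1.32), so a difference between the Delta genes was not detectable at this depth.

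The Jagged genes lay on opposite sides of equality. Jag1 was at 8.56 CPM in neurons and 19.5 CPM in NPCs, a ratio of 0.440 (0.371 to 0.519). Its log2 ratio of −1.10 fell short of 2-fold, at −0.85, with 5 CPM added in place of 1. Jag2 was at 23.4 CPM in neurons (21.5 to 25.5) and 7.79 CPM in NPCs (6.77 to 8.91), from 534 reads in neurons and 210 in NPCs. Its ratio was 3.01 (2.56 to 3.55), and its log2 ratio of 1.48 lay at percentile 99.2 of all genes past the filter.

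The Jag2 ratio was 6.84 times that of Jag1 (5.41 to 8.67), a factor that does not depend on how the libraries are scaled to each other. Per kilobase of transcript, the level of Jag2 was 3.01 times that of Jag1 in neurons (2.55 to 3.56) and 0.440 times that of Jag1 in NPCs (0.373 to 0.517). The more abundant Jagged transcript was therefore Jag2 in the neuron library and Jag1 in the NPC library. Dll1 was the most abundant of the 4 ligands per kilobase, at 15.2 CPM per kilobase in neurons and 29.3 in NPCs. Its level was 2.48 times the summed level of the Jagged genes in neurons and 5.87 times that sum in NPCs.

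Markers of Cajal-Retzius cells and of microglia moved with Jag2. The summed level of 7 Cajal-Retzius genes was 479.2 CPM in neurons and 114.0 CPM in NPCs. Of the 7, 6 were at least 2-fold higher in neurons, beside 3.85% of all genes past the filter, and none was at 0 reads. Reln, which encodes the secreted protein reelin of these cells, was at 434.2 CPM in neurons and 95.8 CPM in NPCs. The sum of 11 microglia and macrophage genes was 156.6 CPM in neurons and 36.0 CPM in NPCs. Of the 11, 10 were at least 2-fold higher in neurons, beside 3.85% of all genes, and none was at 0 reads. In both lists some genes passed the filter through the neuron library alone, which fixed their direction. The microglial receptor gene Csf1r was at 46.8 CPM in neurons and 10.9 CPM in NPCs. Of 8 interneuron genes, 1 (12.5%) was at least 2-fold lower in neurons, beside 6.73% of all genes. All 8 had log2 ratios below 0, as had 50.7% of all genes past the filter. Gad1, which makes the transmitter GABA, was at 22.5 CPM in neurons and 26.6 CPM in NPCs. The part of these cells in the Jag2 difference was not tested.

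**Figure D3:**
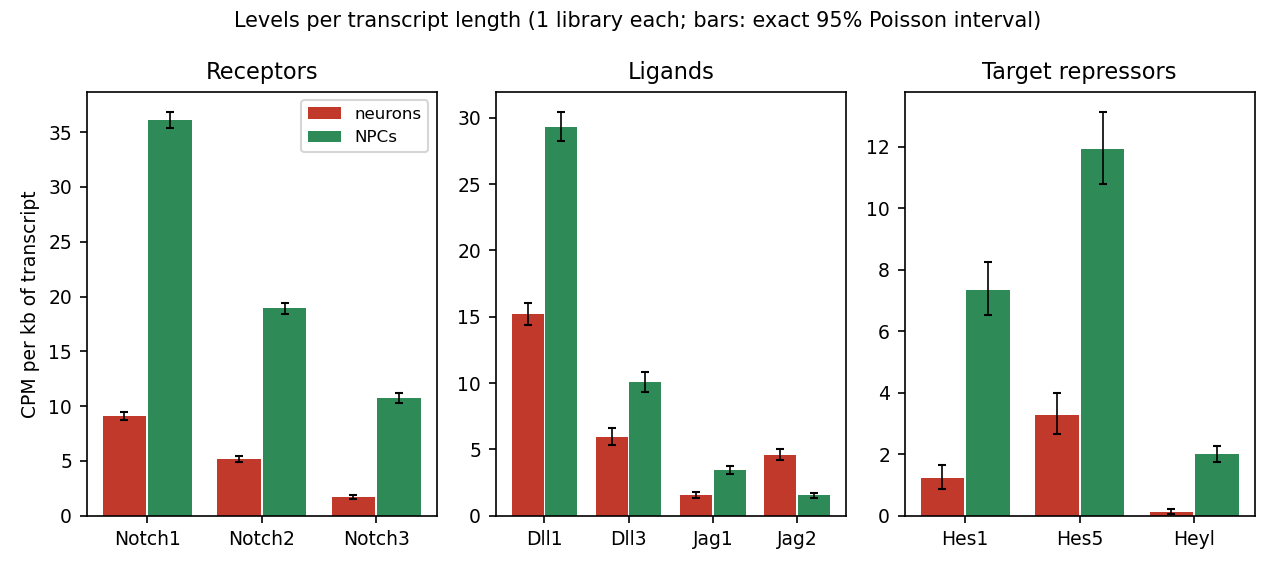
Levels of receptors, ligands and target repressors in CPM per kilobase of transcript, with neurons on the left of each pair and NPCs on the right, and exact 95% Poisson intervals. Notch1, Dll1 and Hes5 are the most abundant of their groups in both libraries, and the Jag2 bar is the single neuron bar above its NPC bar.

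The target repressors were all lower in neurons. Hes1, a basic helix-loop-helix repressor of proneural genes, was at 1.80 CPM in neurons (1.29 to 2.44) and 10.8 CPM in NPCs (9.58 to 12.1). These values rest on 41 reads in neurons and 291 in NPCs and give a ratio of 0.167 (0.117 to 0.232). Hes5, its partner in maintaining radial glia, was at 4.17 CPM in neurons (3.37 to 5.10) and 15.2 CPM in NPCs (13.7 to 16.7). From 95 reads in neurons and 409 in NPCs its ratio was 0.275 (0.218 to 0.345), which was 1.65 times that of Hes1 (1.09 to 2.51). The ratio of Hes5 to that of Notch1 was 1.09 (0.860 to 1.38), so Hes5 and Notch1 could not be told apart in relative level at this depth. Hes1 and Notch1 did differ, the Notch1 ratio being 1.51 times that of Hes1 (1.08 to 2.16).

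Heyl, a Hes-related repressor, was at 0.527 CPM in neurons and 9.08 CPM in NPCs, from 12 reads in neurons and 245 in NPCs. Its ratio of 0.0580 (0.0296 to 0.103) was the lowest of the 10 genes, and its log2 ratio of −2.72 lay at percentile 0.197 of all genes past the filter. With 5 CPM added its log2 ratio was −1.35. The mural and oligodendrocyte lineage lists given beside Notch3 each had a median log2 ratio of −2.91. Olig1, an oligodendrocyte lineage factor gene, was at 0.439 CPM in neurons and 9.82 CPM in NPCs, close to the levels of Heyl. S1pr3, a gene of neither list, was closer still, at 0.439 CPM in neurons and 9.45 CPM in NPCs. Both were named after their values were seen. The part of mural and oligodendrocyte lineage cells in the Heyl difference was not tested. Per kilobase, Hes5 made up 70.9% of the summed level of the 3 repressors in neurons and 56.0% in NPCs, and Hes1 made up 26.6% in neurons and 34.6% in NPCs.

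Ordered by ratio from low to high, the genes ran Heyl, Notch3, Hes1, Notch1, Notch2, Hes5, Jag1, Dll1, Dll3 and Jag2. Of the 9 neighbouring pairs, the interval for the factor between their ratios excluded 1 for 5 and included 1 for 4. The pairs not separated by counting error were Hes1 and Notch3, Hes5 and Notch2, Dll1 and Jag1, and Dll3 and Dll1. The widest step lay between Dll3 and Jag2, a factor of 5.08 (4.13 to 6.27). Receptors and repressors thus formed the low end, and the Delta genes with Jag1 lay between them and equality.

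Other genes of the pathway mostly stayed within 2-fold. Of 62 such genes, 59 passed the filter, and 8 of these (13.6%) were at least 2-fold lower in neurons, where 6.73% of all genes were. Among the 8 was Dlk1, which passed the filter through the NPC library alone, and this fixed its direction. On the other side, 1 gene (1.69%) was higher in neurons by this measure, beside 3.85% of all genes. Their median log2 ratio was −0.15.

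**Figure D4:**
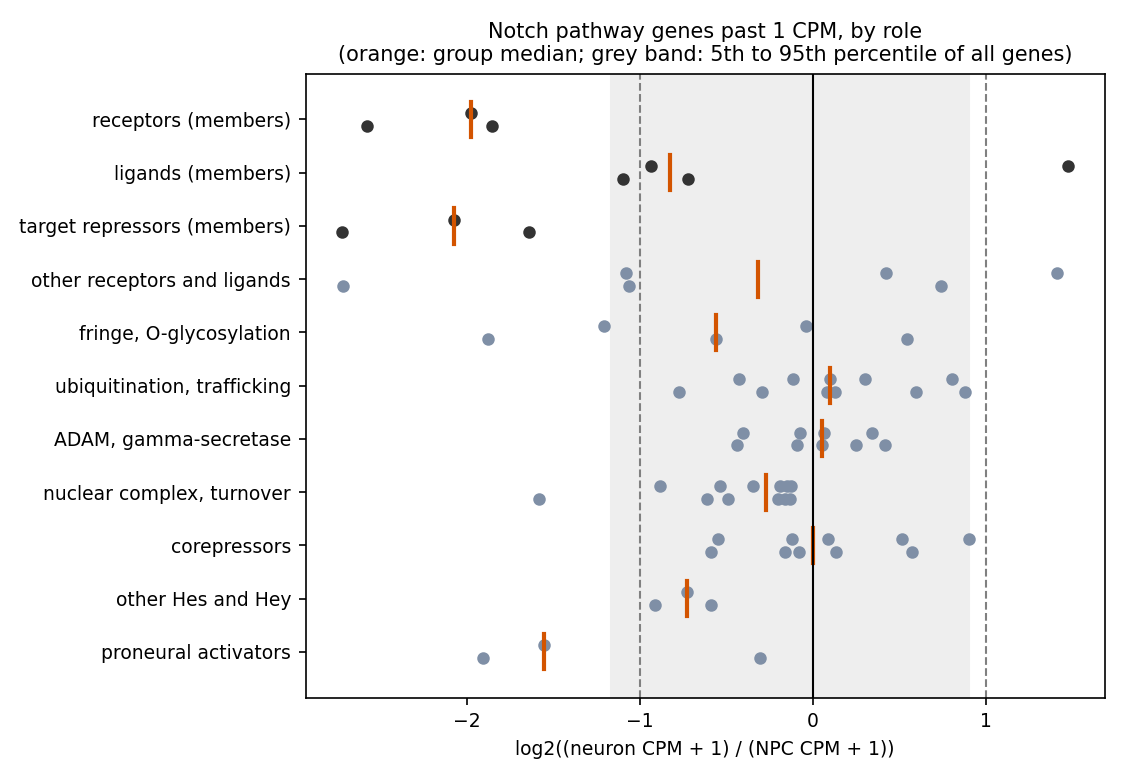
Log2 ratio of neurons to NPCs, with 1 CPM added to both values, for the 10 genes (black) and the other pathway genes past the filter (grey-blue), by role. Orange ticks are group medians, dashed lines mark 2-fold, and the grey band runs from the 5th to the 95th percentile of all genes (−1.17 to 0.90). The receptors and target repressors lie left of the band, while the trafficking, gamma-secretase and corepressor genes have medians close to 0.

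Further ligands and receptors went both ways. Dlk1, a Delta-like protein without the receptor-binding DSL domain, was at 0.395 CPM in neurons and 8.16 CPM in NPCs, a ratio of 0.0485 (0.0219 to 0.0936). Its relative Dlk2 was at 8.34 CPM in neurons and 2.52 CPM in NPCs, a ratio of 3.31 (2.50 to 4.43). Dlk2 was the single pathway gene counted as higher in neurons. Notch4 and Dll4, a receptor and a ligand of endothelium, had ratios of 0.409 (0.306 to 0.540) and 0.332 (0.210 to 0.508). Endothelial markers moved with them, at a summed level over 12 genes of 4.35 CPM in neurons and 24.8 CPM in NPCs. All 9 endothelial genes past the filter had log2 ratios below 0, as had 50.7% of all genes past the filter. Of the 9, 7 were at least 2-fold lower in neurons, beside 6.73% of all genes. But all except Esam passed the filter through the NPC library alone, which fixed their direction. Esam was at 1.19 CPM in neurons and 4.12 CPM in NPCs. Kdr was at 0.439 and Pecam1 at 0.395 CPM in neurons, against 4.82 and 2.15 CPM in NPCs. Sox17, at 0 reads in neurons and 3 in NPCs, was too scarce to compare. The part of endothelial cells in the Notch4 and Dll4 differences was not tested.

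Fringe enzymes add sugars to Notch and tune its response to Delta and Jagged ligands. Lfng was at 3.86 CPM in neurons and 16.9 CPM in NPCs, a ratio of 0.229 (0.180 to 0.288), close to that of the receptors. Mfng was at 67.2 CPM in neurons and 156.4 CPM in NPCs, a ratio of 0.430 (0.405 to 0.456). The third fringe gene, Rfng, named after its value was seen, was at 121.9 CPM in neurons and 83.3 CPM in NPCs, a ratio of 1.46 (1.38 to 1.55).

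In lists as short as those of the shared machinery, counts of 0 lie near the shares over all genes, 6.73% lower and 3.85% higher in neurons. Of 11 genes for ubiquitination of ligands and trafficking of Notch, 0 reached 2-fold, and the ubiquitin ligase genes Neurl1b and Dtx1 had neuron to NPC ratios of 1.91 (1.66 to 2.20) and 1.75 (1.66 to 1.85). Of 9 ADAM and gamma-secretase genes, which cut the receptor, 0 reached 2-fold. The protease gene Adam17 had a ratio of 0.731 and the gamma-secretase subunit gene Aph1b a ratio of 1.34. Of 10 corepressor genes, 0 reached 2-fold, with Tle2, a Groucho partner of Hes proteins, at 1.91 (1.71 to 2.13) and the deacetylase gene Hdac1 at 0.661.

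Of 12 genes of the nuclear complex and its turnover, only Nrarp was at least 2-fold lower in neurons (8.33%, beside 6.73% of all genes). All 12 had log2 ratios below 0, as had 50.7% of all genes past the filter. Their median log2 ratio was −0.27. Nrarp, a feedback inhibitor that Notch itself induces, was at 23.0 CPM in neurons and 70.8 CPM in NPCs, a ratio of 0.325 (0.294 to 0.358). The coactivator gene Maml2 had a ratio of 0.518 (0.443 to 0.604). Rbpj, named after its value was seen, was at 228.1 CPM in neurons and 321.4 CPM in NPCs, a ratio of 0.710 (0.685 to 0.734).

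Of 6 other Hes and Hey genes, 3 passed the filter and 0 of these reached 2-fold with 1 CPM added, beside 6.73% of all genes lower and 3.85% higher in neurons. Hey2 was at 0.395 CPM in neurons and 1.63 CPM in NPCs, a ratio of 0.242 (0.104 to 0.503) that the added value brought under 2-fold. It passed the filter through the NPC library alone, which fixed its direction. The count of pathway genes lower in neurons was 9 in place of 8 with 0.1 or 0.5 CPM added. Hey1 was at 23.6 CPM in neurons and 39.6 CPM in NPCs. Hes2 and Hes3 had 0 reads in both libraries, which allows up to 0.132 CPM in neurons and 0.111 CPM in NPCs.

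The proneural factor genes Neurog1 and Neurog2, whose products switch on Delta genes, were lower in neurons along with Dll1 and Dll3. Neurog1 was at 6.01 CPM in neurons and 25.4 CPM in NPCs, a ratio of 0.237 (0.196 to 0.285). Neurog2 had a ratio of 0.339 (0.327 to 0.351). The remaining gene of this list, Insm1, stayed within 2-fold at a ratio of 0.809 (0.781 to 0.838). For comparison, radial glia markers had a median log2 ratio of −1.46 over 8 genes. Intermediate progenitor markers, which include Neurog1, Neurog2 and Insm1, had a median of −1.54 over 6 genes. Markers of young cortical neurons, which include Dcx, had a median of 0.84 over 9 genes, short of 2-fold. The medians were −1.98 for the 3 receptors and −2.07 for the 3 target repressors. With 5 CPM added in place of 1 the repressors were at −1.35 (Heyl), −1.22 (Hes1) and −1.14 (Hes5).

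The genes nearest to single members in level were found by the distance between log2(CPM + 1) values over the 2 libraries. For Notch1 they were Fat1, a giant cadherin gene (distance 0.30), and Fabp7, a fatty acid binding protein gene of radial glia (0.43). For Dll1 they were Zc3h12c (0.019) and Gabpb2 (0.041). For Jag2 they were Trnp1, a nuclear protein gene (0.082), and Grin1, the obligatory NMDA receptor subunit gene (0.097), at 24.9 CPM in neurons and 7.49 CPM in NPCs. A likeness over 2 libraries carries no more than these values.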

How the data were processed

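The deposited values are a signal per gene, never below 0, which the authors had rescaled to a common library size. Tools listed, per the submitters' processing notes, were TopHat 1.2.0, CASAVA 1.9, edgeR with no version, and SAMtools 0.1.18, with genome build mm9 and no stated roles. Which counter and annotation were used, and whether by strand, is not given in the sources used here. In GENCODE M21 exons of Notch1, Notch3, Dll1 and Hes5 overlap genes on the opposite strand and Notch2 overlaps a gene on its own strand, so their reads could include others.

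Values were whole multiples of 1.12797 (neurons) and 0.952727 (NPCs), within 0.05 reads for 100% of genes in each library. Dividing by these steps recovered whole reads. Deposited values under 0.01 were taken as 0. With 1 library per group no count test could be fitted and no p-value was computed. Both libraries were divided by the mean of their sums to give CPM. Ratios are of CPM without an added value, with Clopper-Pearson intervals, and factors between ratios have exact conditional intervals (SciPy 1.17.1, Python 3.11.15). Transcript lengths are of the longest principal transcript in GENCODE M21, which is not the authors' annotation. The calculations were tested on simulated data.

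The genes and lists were chosen with earlier results of these data known, and some items are not reported here. In each pathway group the 2 genes with the largest absolute log2 ratio and those at least 2-fold apart are named, and the 2 nearest genes are given for Notch1, Dll1 and Jag2. Acta2, Tagln, Myh11, Cspg4, Des, Esam, Sox17, Olig1, S1pr3, Insm1, Hes2 and Hes3 were named after their values were seen. Alternatives used other added values, filters and scalings, by total reads, upper quartile, edgeR 4.0.16 TMM and DESeq2 1.42.0 size factors in R 4.3.3.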

Additional observations from a re-analysis of the deposited data

How the results depend on the processing

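With 0.1, 0.5 or 5 CPM added, with 4 other scalings, with no filter and with a filter of 10 CPM, the log2 ratios of Notch1, Notch2, Notch3, Dll1, Dll3, Jag1, Hes1, Hes5 and Heyl stayed below 0 and that of Jag2 above 0, except that Heyl fell under the 10 CPM filter and has no value there. Jag2 ranged from 1.15 to 1.58. Of the 10 genes, between 6 and 8 were at least 2-fold lower in neurons and 1 was higher by that much under each of these settings. Scaling by total reads moved the median of all genes to −0.069. Counted over all genes with 5 CPM added, 238 were 2-fold or more higher in neurons and 399 in NPCs, against 489 and 854 with 1 CPM added, by construction of the added value. With the 10 CPM filter, 548 of 9950 genes were higher in NPCs. The count of other pathway genes higher in neurons was 0 with 5 CPM added and 0 with the 10 CPM filter, since Dlk2 lies below 10 CPM, and 5 were higher in NPCs with that filter, against 8 with the 1 CPM filter, since fewer genes were tested. No paired analysis was possible because each population has 1 library, and for the same reason no replicate could be left out. Depth limits Heyl most, at 12 neuron reads.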
